A study of Mus musculus with 6 samples.

Results

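Transcripts of 7 intermediate filament genes were examined in C2C12 cells, a myoblast line from mouse muscle whose cells fuse to myotubes once serum is lowered. They were chosen by name as the muscle, mesenchymal and general members of the family, and are 7 of the 23231 genes listed in at least 1 library. *Des* (desmin), *Synm* (synemin) and *Nes* (nestin) encode filament proteins of muscle, *Vim* (vimentin) the filament protein of mesenchymal cells, and *Lmna*, *Lmnb1* and *Lmnb2* the nuclear lamins. RNA was sequenced on day 5 of differentiation from 3 libraries of dCas9-KRAB cells and 3 libraries of dCas9-KRAB-En5 cells. Cells of both groups were transduced at a multiplicity of infection of 100 with lentivirus encoding dCas9-KRAB, a Cas9 without nuclease activity joined to a repressor domain, then selected with 2 μg/ml puromycin and moved to medium with 2% horse serum. The dCas9-KRAB-En5 cells also carried 2 sgRNAs against Myog-En5, an enhancer of *Myog* (En5 libraries), whereas the dCas9-KRAB cells carried no enhancer sgRNA (control libraries). Whether the selected cells were kept as a pool or as clones is not given in the sources used here. The comparison asks how the transcriptome of differentiating cells differs when the enhancer of *Myog*, a transcription factor of muscle differentiation, is targeted.

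Intermediate filaments are rope-like polymers of coiled-coil proteins. In the cytoplasm, myoblasts hold mostly vimentin and nestin, and desmin accumulates during differentiation and ties the Z-discs of the myofibrils to each other, to the membrane and to the nucleus. Inside the nucleus, the lamins form a meshwork beneath the inner membrane, with A-type lamins from *Lmna* prominent in differentiated cells and B-type lamins from *Lmnb1* and *Lmnb2* present in nearly all cells.

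The 6 libraries held between 31831093 and 73988425 counts. A floor of 3 counts corresponded to 0.0405 to 0.0942 CPM (counts scaled to 1000000 per library), a limit for counting error alone. One library, dCas9-KRAB-En5 replicate 3, stood apart, with 13991 genes listed against 17084 to 19395 in the other libraries and 25.8% of its counts in ribosomal protein genes against 10.8% to 19.4%. *Myog* had 43211, 68488 and 74845 counts in the dCas9-KRAB libraries but 12, 0 and 0 in the dCas9-KRAB-En5 libraries. Levels are given as TPM, that is, counts per gene length, scaled to an equal total in each library, so they can be compared between genes. Where 3 values of a group are listed, they follow the order of replicates 1, 2 and 3. The labels name the cells C2C12, the myoblast line. A list of 8 myoblast markers summed to 162 to 482 TPM in control libraries and to 9.47 to 30.1 TPM in En5 libraries. In the En5 libraries, *Myod1* was at most 0.0761 TPM and *Myf5* at most 0.0566 TPM. A list of 10 myotube markers summed to 15048 to 17246 TPM in control libraries and to 6.26 to 15.8 TPM in En5 libraries. A list of 16 macrophage markers summed to 4099 to 4665 TPM and to 5645 to 8730 TPM, with *Csf1r* at 132 TPM or more in all 6 libraries and *Mrc1* at 0 in all of them. In bulk RNA, fewer cells of a type and less RNA per cell cannot be told apart.

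*Des* and *Nes* were lower in dCas9-KRAB-En5 cells by 94.0-fold and 22.5-fold, whereas none of *Vim*, *Lmna*, *Lmnb1* and *Lmnb2* passed the cutoffs. A gene was called where edgeR's quasi-likelihood test gave an adjusted p no higher than 0.01 and the log2 fold change was 1 or more in size. Of the 7 genes, 6 had enough counts to be tested, and of these 2 were called lower and 0 higher in dCas9-KRAB-En5 cells. Among all 14378 genes tested, 4.67% were called lower and 1.52% higher. At an unadjusted p below 0.05, 2 of the 6 were lower and 1, *Vim*, was higher in edgeR's test, against 16.3% and 16.6% of all genes tested. DESeq2 called the same 2 lower and 0 higher, against 8.66% and 5.88% of the genes it tested. The counts were again 2 and 0 in a fit blocked by replicate number, against 6.79% and 3.94%, and without dCas9-KRAB-En5 replicate 3, against 14.0% and 11.7%. The labels do not say that replicates are separate cultures, so the p-values measure the spread between these libraries.

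**Figure D1:**
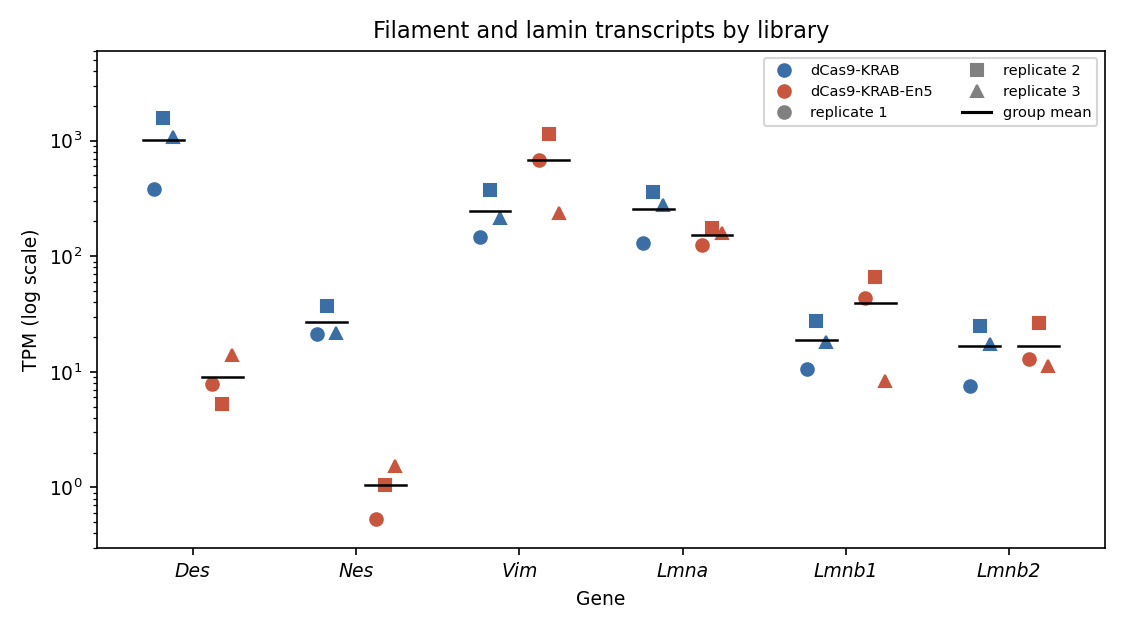
TPM of *Des*, *Nes*, *Vim*, *Lmna*, *Lmnb1* and *Lmnb2* (vertical axis, log scale) in each of the 3 dCas9-KRAB libraries (blue) and 3 dCas9-KRAB-En5 libraries (red), with replicate numbers as shapes and group means as horizontal lines. The groups lie apart for *Des*, at 383 to 1577 against 5.31 to 13.9 TPM, and for *Nes*, at 21.1 to 37.3 against 0.537 to 1.54 TPM, and overlap for the other genes. *Synm*, with counts in 1 library only, is not drawn.

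*Des* (ENSMUSG00000026208), the main filament gene of differentiated muscle, has 9 exons on the plus strand of chromosome 1, from 75360329 to 75368579 of GRCm38. Its TPM was 383, 1577 and 1071 in the control libraries, from 39039, 221585 and 180071 counts. In the En5 libraries its TPM was 7.87, 5.31 and 13.9, from 626, 338 and 1192 counts. Thus *Des* remained well above the floor of counting in every library, and the lowest control library exceeded the highest En5 library. The mean was 1010.5 ± 599 (SD, n = 3) TPM in dCas9-KRAB cells and 9.02 ± 4.40 (SD, n = 3) TPM in dCas9-KRAB-En5 cells. By edgeR's quasi-likelihood test, the log2 fold change was -6.55 ± 0.91 (SE) with a Benjamini-Hochberg adjusted p of 0.000828, and 1.99% of the genes tested had a lower log2 fold change. The exact permutation test on TPM gave p = 0.1 (two-sided), the smallest that 3 against 3 libraries allow. Without dCas9-KRAB replicate 1, the log2 fold change was -6.95 but the adjusted p was 0.0115, so the call was lost. Without dCas9-KRAB-En5 replicate 3, *Des* was 226-fold lower, at a log2 fold change of -7.82. *Gm15179*, an annotated gene on the opposite strand, overlaps *Des*, was listed in no library and shares 4.61% of the 50-base words of the *Des* transcripts.

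*Nes* (ENSMUSG00000004891), which encodes a long filament protein of myoblasts and regenerating fibers that copolymerizes with vimentin and desmin, lies on chromosome 3 from 87971078 to 87980451 on the plus strand and has 4 exons. Its TPM was 21.1, 37.3 and 21.8 in the control libraries. In the En5 libraries it was 0.537, 1.05 and 1.54, from 73, 114 and 226 counts. The groups did not overlap, at 26.7 ± 9.16 (SD, n = 3) against 1.04 ± 0.501 (SD, n = 3) TPM. edgeR's quasi-likelihood test gave a log2 fold change of -4.49 ± 0.71 (SE) with an adjusted p of 0.00184, and that call, too, was lost without dCas9-KRAB replicate 1, with a log2 fold change of -4.62 and an adjusted p of 0.0238. Without dCas9-KRAB-En5 replicate 3, *Nes* was 52.2-fold lower, at a log2 fold change of -5.71. *Des* and *Nes* were thus the 2 of the 6 tested genes with all En5 libraries below all control libraries in TPM, an order found in 19.7% of all genes tested, and 0 had the opposite order, found in 7.76%. Their ratio also moved, since *Des* was 18.1, 42.3 and 49.1 times *Nes* in the control libraries and 14.7, 5.07 and 9.01 times *Nes* in the En5 libraries (exact permutation test, two-sided, p = 0.1). This is 1 of 25 shares, sums and ratios compared by the exact permutation test, and p = 0.1 became 0.179 after Benjamini-Hochberg adjustment over them.

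*Synm* (ENSMUSG00000030554), whose protein joins desmin and vimentin filaments to the membrane, lies on chromosome 7 from 67730160 to 67759742 on the minus strand. It had 15 counts in dCas9-KRAB replicate 2 and 0 in the other 5 libraries, so it was not tested and no fold is given. It overlaps *Ttc23* and *Gm45102* on the opposite strand, which share 5.16% of its 50-base words.

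The sequence upstream of the start site is shown for *Des* and *Nes*, the 2 genes with a call, as RefSeq gives it for GRCm38.p6. E-boxes, the CANNTG motif bound by MYOD1 and MYOG among other factors, are in capitals and were searched on both strands. The *Des* window, chr1:75360042-75360291 on the plus strand, holds 2 of them, 220 and 36 bases before the start in RefSeq. The second reads CAGCTG. That RefSeq start lies upstream of the *Des* start given above. The *Nes* window, chr3:87970843-87971077 on the plus strand, stops short of the annotated exon and holds none.
Des: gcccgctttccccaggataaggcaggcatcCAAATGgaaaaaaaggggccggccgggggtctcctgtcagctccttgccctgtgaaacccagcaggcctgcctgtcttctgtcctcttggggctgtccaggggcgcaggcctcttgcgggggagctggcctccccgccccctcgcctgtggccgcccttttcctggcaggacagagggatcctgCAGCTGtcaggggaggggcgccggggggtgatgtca
Nes: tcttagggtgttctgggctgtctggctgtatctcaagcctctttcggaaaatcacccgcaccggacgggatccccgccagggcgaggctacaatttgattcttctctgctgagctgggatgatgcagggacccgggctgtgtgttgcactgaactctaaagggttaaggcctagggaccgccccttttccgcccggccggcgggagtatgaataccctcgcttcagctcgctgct
Of 32851 mouse promoters of 250 upstream bases, 66.2% hold CANNTG and 13.0% hold CAGCTG. A match of letters is a description and not a bound site. Of the 7 genes, 6 were searched, with 8 entries among these promoters, and *Lmnb1* was left out of the search. In the 250 bases upstream of the start of each entry, *Vim* had 0 E-boxes, *Synm* had 1, both entries of *Lmna* had 0, and those of *Lmnb2* had 4 and 1. The windows of *Vim*, of both *Lmna* entries and of the *Lmnb2* entry with 1 lie inside the gene positions printed for these genes.

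*Vim* (ENSMUSG00000026728), on chromosome 2 from 13573927 to 13582826 on the plus strand with 9 exons, encodes the filament protein of myoblasts, fibroblasts, macrophages and most other mesenchymal cells. Its TPM was 147, 375 and 215 in the control libraries and 679, 1133 and 235 in the En5 libraries. In TPM, replicates 1 and 2 of dCas9-KRAB-En5 were above all control libraries, and replicate 3, the library that stood apart, was among them. In CPM after edgeR's scaling between libraries (TMM), *Vim* was at 452, 975 and 670 in the control libraries. It was at 1463, 2111 and 1100 in the En5 libraries on that scale, without overlap, and the share of all genes in this order was not computed there. Between libraries of the same replicate number, *Vim* was higher in dCas9-KRAB-En5 in 3 of 3 pairs, with 215 against 235 TPM in replicate 3, and the share of all genes with such pairs was not computed. The means were 246 ± 117 (SD, n = 3) and 682 ± 449 (SD, n = 3) TPM. Its log2 fold change of 1.16 ± 0.51 (SE) did not pass the cutoffs of edgeR's quasi-likelihood test, with an unadjusted p of 0.044 and an adjusted p of 0.14, and 79.8% of the genes tested had a lower log2 fold change. Without dCas9-KRAB-En5 replicate 3 it was 1.27 with an adjusted p of 0.0214. Of the 16 macrophage markers, only *Csf1r* was set beside *Vim* singly. *Vim* was 1.11, 0.848 and 0.667 times *Csf1r* in the control libraries and 1.35, 1.70 and 1.27 times *Csf1r* in the En5 libraries. These ratios did not overlap (exact permutation test, two-sided, p = 0.1, adjusted p = 0.179). The 13 tested macrophage markers had log2 fold changes from -2.03 (*C1qb*) to 2.75 (*Itgam*), with a median of 0.51. Those of *Itgam*, *Adgre1* (2.68) and *Ptprc* (1.55) were above that of *Vim*, and only *Adgre1* was called. *Vim* equalled 3.58% to 8.05% of the summed macrophage markers in control libraries and 4.17% to 15.9% in En5 libraries, and these ranges overlapped. A list of 8 fibroblast markers summed to 81.4 to 244 TPM and to 29.0 to 60.5 TPM. The part of other cell types in the *Vim* level was not tested.

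Within a library, the shares of *Vim* and *Des* changed places. Of the TPM summed over *Des*, *Vim*, *Nes* and *Synm*, *Vim* held 26.6%, 18.9% and 16.5% in the control libraries and 98.8%, 99.4% and 93.9% in the En5 libraries. *Des* held 69.6%, 79.3% and 81.9% in the former and 1.15%, 0.466% and 5.53% in the latter. The mean share of *Vim* was 20.6% ± 5.30 (SD, n = 3) against 97.4% ± 3.05 (SD, n = 3), a difference of 76.7 percentage points (exact permutation test, two-sided, p = 0.1, adjusted p = 0.179). Expressed as a ratio, *Vim* was 0.382, 0.238 and 0.201 times *Des* in the control libraries and 86.2, 213 and 17.0 times *Des* in the En5 libraries. The share does not depend on how libraries are scaled to each other, and it moved far more than its spread between replicates. However, the share of *Vim* also rises where *Des* alone falls. It therefore largely restates the lower *Des* and does not show a higher level of *Vim*, which was not called. By contrast, the summed TPM of the 4 genes overlapped between the groups, at 551, 1990 and 1308 in the control libraries and 687, 1139 and 251 in the En5 libraries (exact permutation test, two-sided, p = 0.3).

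**Figure D2:**
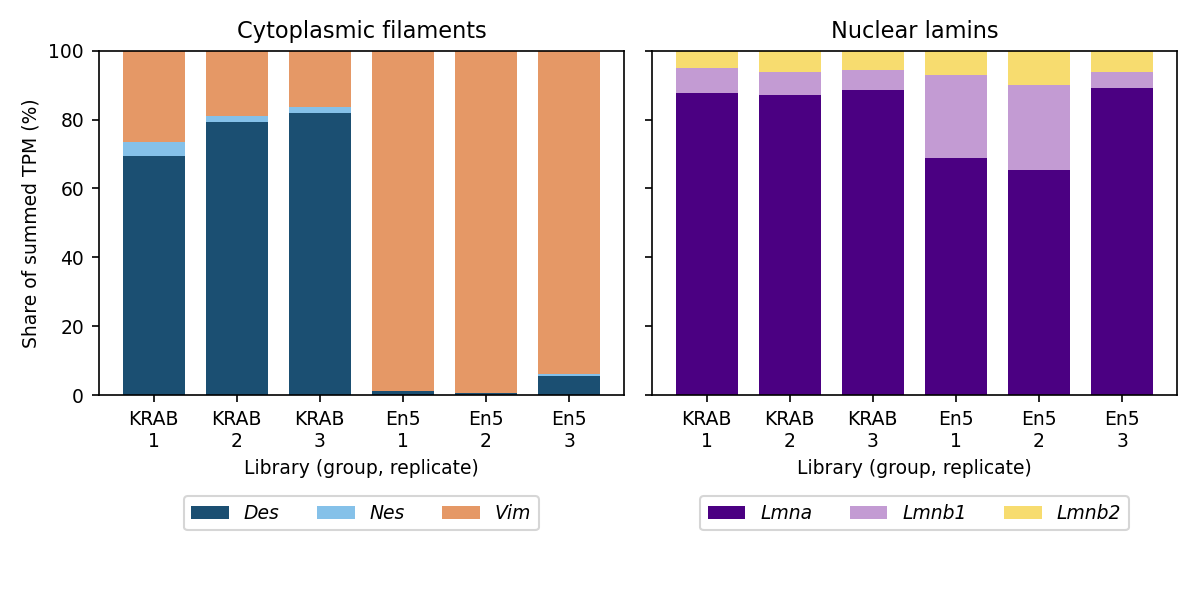
Share of summed TPM (vertical axis, %) in each library, out of the 4 cytoplasmic filament genes at left (*Synm*, too low to see, is not drawn) and the 3 lamin genes at right. *Des* holds 69.6% to 81.9% of the left bars in control libraries and *Vim* 93.9% to 99.4% in En5 libraries, while *Lmna* holds the largest part of every right bar, from 65.4% to 89.2%.

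*Des* itself was lower in dCas9-KRAB-En5 cells, but as a percentage of the summed myotube markers it was higher there. It equalled 2.38%, 9.14% and 7.12% of the summed TPM of the 10 myotube markers in the control libraries and 49.7%, 52.0% and 222% in the En5 libraries (exact permutation test, two-sided, p = 0.1, adjusted p = 0.179). Of those markers, 9 of 10 were called lower, with a median log2 fold change of -10.33 against 0.08 over all genes tested. The low sum in En5 libraries, at most 15.8 TPM, is the denominator of these percentages. In dCas9-KRAB-En5 replicate 3, which gave 222%, only 4 of the 10 markers had any counts and the sum was 6.26 TPM.

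Among the lamins, *Lmna* (ENSMUSG00000028063; chromosome 3, 88480147 to 88509956, minus strand, 10 to 12 exons) encodes lamins A and C, whose transcripts the gene counts do not separate. Its TPM was 130, 358 and 278 in the control libraries and 126, 174 and 160 in the En5 libraries. The groups overlapped through dCas9-KRAB replicate 1. Between libraries of the same number, *Lmna* was lower in dCas9-KRAB-En5 in 3 of 3 pairs, with 130 against 126 TPM in replicate 1. *Lmnb1* and *Lmnb2* were each higher in 2 pairs and lower in 1. The share of all genes with 3 of 3 pairs in the same direction was not computed. The means of *Lmna* were 255 ± 116 (SD, n = 3) and 153 ± 25.0 (SD, n = 3) TPM. The difference did not pass edgeR's quasi-likelihood test, at a log2 fold change of -0.71 ± 0.56 (SE) and an adjusted p of 0.406. Without dCas9-KRAB-En5 replicate 3 it was -1.38, with an adjusted p of 0.0228.

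*Lmnb1* (ENSMUSG00000024590), on chromosome 18, encodes lamin B1, which is typically abundant in proliferating cells. Its TPM was 10.7, 27.5 and 18.1 in the control libraries and 43.9, 66.0 and 8.29 in the En5 libraries. As with *Vim* in TPM, replicates 1 and 2 of dCas9-KRAB-En5 lay above every control library and replicate 3 did not, being the lowest of all 6. In CPM after edgeR's scaling, dCas9-KRAB replicate 1 was the lowest, at 20.6 against 24.2 in dCas9-KRAB-En5 replicate 3. In edgeR's quasi-likelihood test the log2 fold change was 0.68 ± 0.51 (SE), with an adjusted p of 0.387. A list of 8 markers of cycling cells, which had 0 genes called in either direction by edgeR, summed to 141 to 146 TPM in control libraries and to 146, 215 and 79.6 TPM in the En5 libraries. Within dCas9-KRAB-En5, *Lmnb1* was highest in replicate 2 and lowest in replicate 3, as were the summed markers, 3 of the 6 tested filament and lamin genes and 49.3% of all genes tested. The part of cycling cells in its level was not tested.

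*Lmnb2* (ENSMUSG00000062075; chromosome 10, 80901203 to 80918245, minus strand, 9 to 12 exons), which encodes lamin B2, had nearly equal means of 16.7 ± 8.78 (SD, n = 3) and 16.8 ± 8.29 (SD, n = 3) TPM. Its values were 7.59, 25.1 and 17.3 TPM in the control libraries and 12.9, 26.3 and 11.1 TPM in the En5 libraries. edgeR's quasi-likelihood test gave a log2 fold change of -0.14 ± 0.49 (SE) and an adjusted p of 0.865, and the sign was positive in 4 of 14 alternative fits.

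The balance of the lamins differed between En5 libraries more than between control libraries. *Lmna* held 87.7%, 87.2% and 88.7% of the summed lamin TPM in the control libraries and 68.9%, 65.4% and 89.2% in the En5 libraries. The mean shares of 87.9% ± 0.769 (SD, n = 3) and 74.5% ± 12.8 (SD, n = 3) overlapped through dCas9-KRAB-En5 replicate 3 (exact permutation test, two-sided, p = 0.4). *Lmnb1* held 5.78% to 7.20% in control libraries and 24.1%, 24.7% and 4.63% in the En5 libraries. As a ratio, *Lmna* was 12.2, 13.0 and 15.3 times *Lmnb1* in the control libraries and 2.86, 2.64 and 19.3 times *Lmnb1* in the En5 libraries. The share of *Lmnb2* was 5.12% to 6.11% in control libraries and 6.22% to 9.86% in En5 libraries, without overlap (exact permutation test, two-sided, p = 0.1, adjusted p = 0.179). The summed lamin TPM was 148 to 411 and 179 to 267, and the groups overlapped.

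The order of the genes by TPM therefore differed between the groups. In dCas9-KRAB cells, *Des* came first by mean TPM, followed by *Lmna* and *Vim*, which overlapped with each other, then by *Nes*, *Lmnb1* and *Lmnb2*, which also overlapped, and last by *Synm*. In dCas9-KRAB-En5 cells, the order was *Vim*, *Lmna*, *Lmnb1*, *Lmnb2*, *Des*, *Nes* and *Synm*. The neighbours that overlapped there were *Lmnb1* with *Lmnb2* and *Lmnb2* with *Des*. Replicates also differed in a common way, since all 6 tested genes had their lowest TPM of the control libraries in replicate 1 and their highest in replicate 2, as did 36% of all genes tested.

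**Figure D3:**
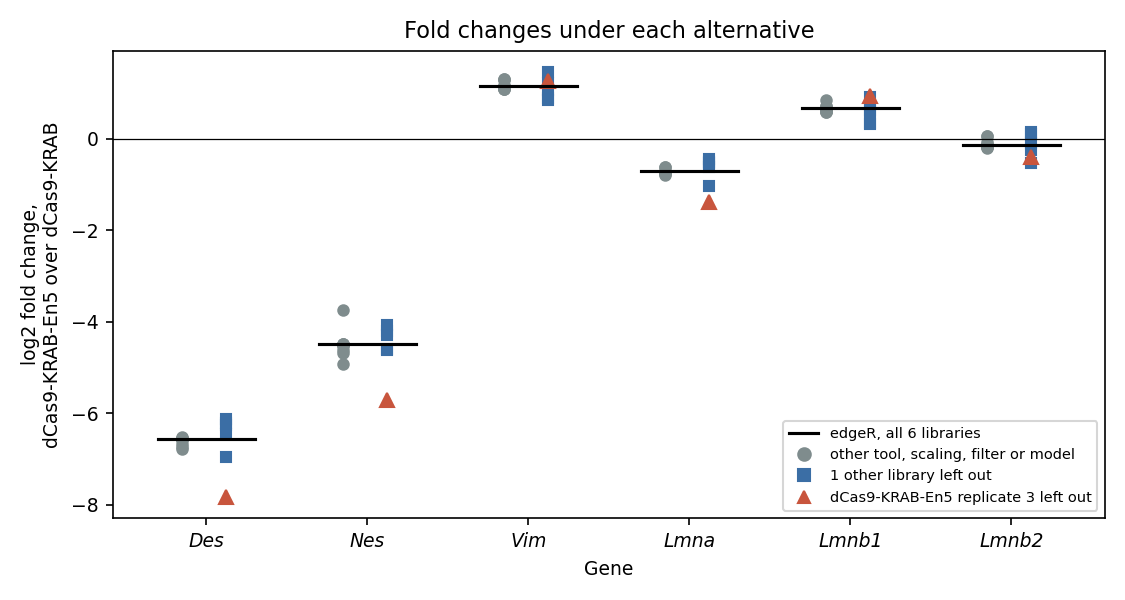
Log2 fold change of dCas9-KRAB-En5 over dCas9-KRAB (vertical axis) for each tested gene, with edgeR on all 6 libraries as a line, other tools, scalings, filters and models as grey circles, and fits without 1 library as squares, or as a red triangle where dCas9-KRAB-En5 replicate 3 was left out. *Des* lies between -7.82 and -6.13 and *Nes* between -5.71 and -3.75 throughout, *Vim* stays positive at 0.85 to 1.46, and *Lmnb2* lies on both sides of 0.

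Genes that act with these filaments were taken as 4 lists with 70 genes in all, of which 51 were tested, 10 were called lower and 0 higher by edgeR, against 4.67% and 1.52% of all genes tested. At an unadjusted p below 0.05 the counts were 13 lower and 8 higher, against 16.3% and 16.6% of all genes tested. DESeq2 called 11 lower and 5 higher, against 8.66% and 5.88% of the genes it tested. Of 22 genes listed as other cytoplasmic filament genes, 8 were tested and 3 were called lower, with a median log2 fold change of -3.49 against 0.08 over all genes tested. These were *Krt80*, a type II keratin gene, at 18.2 ± 6.47 against 0.196 ± 0.0935 (SD, n = 3) TPM and a log2 fold change of -6.71, *Sync*, which encodes syncoilin, a muscle filament protein that binds desmin and dystrobrevin, at -6.42, and *Iffo1*, a filament family gene, at -3.87. Where in the cell the protein of *Iffo1* lies was not tested. *Sync* was low in both groups, with 2.76 to 5.85 TPM in control libraries and at most 8 counts in a En5 library. It had enough counts for a test only through the control libraries. So did *Krt7*, which had at most 3 counts in a En5 library, was not called and enters the median.

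Of 19 linkers and desmin partners, 15 were tested and 6 were called lower, with a median log2 fold change of 0.19. *Cryab*, which encodes αB-crystallin, a small heat shock protein and chaperone of desmin, had a TPM of 250, 576 and 410 in the control libraries and 12.5, 18.7 and 8.69 in the En5 libraries. Its log2 fold change was -5.11 ± 0.54 (SE), with an adjusted p of 0.000131 by edgeR's quasi-likelihood test. The small heat shock protein gene *Hspb1* had a log2 fold change of -4.44, *Flnc*, which encodes the actin crosslinker filamin C of the Z-disc, of -4.38, and *Jup*, which encodes plakoglobin of cell junctions, of -3.67. *Neb*, the gene of the thin filament protein nebulin, had a log2 fold change of -6.80 from at most 7 counts in a En5 library. *Dtna*, which encodes α-dystrobrevin, was at least 105-fold lower against a floor of 3 counts per library. *Neb* and *Dtna*, too, had enough counts for a test only through the control libraries. *Plec*, which encodes plectin, the linker of intermediate filaments to other structures, had a log2 fold change of 0.19 with overlapping groups (edgeR's quasi-likelihood test, adjusted p = 0.826).

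**Figure D4:**
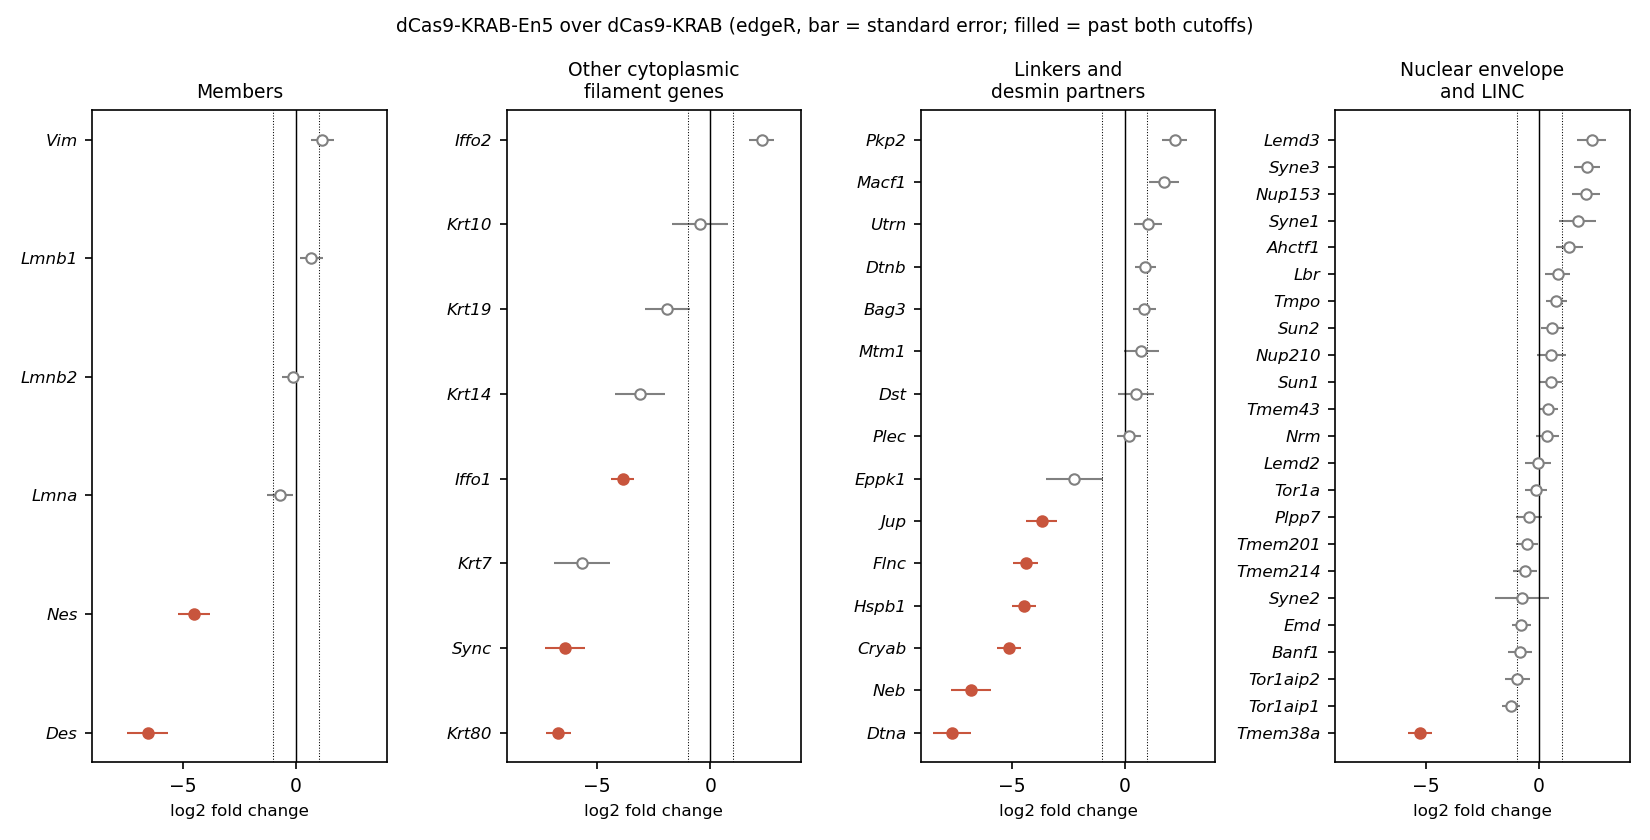
Log2 fold change of dCas9-KRAB-En5 over dCas9-KRAB (horizontal axis, bar = standard error, edgeR) for the filament and lamin genes, labelled as members, and for the tested genes of 3 lists, with filled points past both cutoffs and dotted lines at -1 and 1. The filled points, 2 in the first panel and 3, 6 and 1 in the others, all lie to the left. Of the 23 nuclear envelope genes, 16 lie between the dotted lines, 5 lie to their right and 2, *Tmem38a* at -5.26 among them, to their left.

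Of 24 genes of the nuclear envelope and of the complex that links the lamina to the cytoskeleton, 23 were tested and 1 was called lower, with a median log2 fold change of 0.36. That gene was *Tmem38a*, which encodes a cation channel of the sarcoplasmic reticulum and nuclear membrane of muscle, at 154, 167 and 148 TPM in the control libraries and 4.23, 4.90 and 3.77 TPM in the En5 libraries. *Emd*, which encodes emerin, a partner of lamin A, had a log2 fold change of -0.78 that did not pass the cutoffs (edgeR's quasi-likelihood test, adjusted p = 0.24). All its En5 libraries were below all control libraries in TPM, as in 4 of the 23 tested genes of this list and 19.7% of all genes tested. Those of *Lbr* (0.82), the gene of the lamin B receptor, *Tmpo* (0.74), *Sun1* (0.52), *Sun2* (0.58), *Syne1* (1.70) and *Syne2* (-0.76) did not pass either. All 5 genes of prelamin processing were tested and 0 were called in either direction by edgeR, with 0 lower and 1 higher at an unadjusted p below 0.05 and 0 calls by DESeq2. *Zmpste24*, which encodes the protease that cleaves prelamin A, was at -0.38.

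The 5 genes of these lists that DESeq2 called higher were named after their values were seen. They were *Iffo2*, *Pkp2*, *Lemd3*, *Syne3* and *Nup153*, with log2 fold changes from 2.07 (*Nup153*) to 2.32 (*Lemd3*) and adjusted p-values from 0.0164 (*Iffo2*) to 0.0376 (*Nup153*) by edgeR's quasi-likelihood test. *Syne3*, which encodes nesprin-3, the outer nuclear membrane protein that binds plectin, was at 0.897, 4.56 and 3.13 TPM in the control libraries and 17.0, 23.8 and 4.99 TPM in the En5 libraries. These values did not overlap, an order found in 7.76% of all genes tested. The groups overlapped for the other 4, each of which was lower in dCas9-KRAB-En5 replicate 3 than in replicates 1 and 2.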

How the data were processed

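RNA-Seq of 3 dCas9-KRAB and 3 dCas9-KRAB-En5 libraries was used, grouped by the sample labels. The authors aligned reads with HISAT2 2.2.1 to GRCm38 and counted them with featureCounts, and deposited raw counts and TPM per gene. The annotation release and strand setting are not given in the sources used here. Gene positions and exons are from GENCODE M21 for GRCm38. Unlisted genes were taken as 0.

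Counts were compared with edgeR 4.0.16 in R 4.3.3 (TMM, filterByExpr with minimum count 10 and minimum total count 15, glmQLFTest, condition alone), with Benjamini-Hochberg adjustment over 14378 genes. Each standard error is the fold change divided by the root of its F statistic. The alternatives were DESeq2 1.42.0, limma 3.58.1 on the log2 of TPM plus a pseudocount of 1 or 0.1, other scalings and filters, an adjusted p of 0.05, a replicate block and leaving out each library. Libraries with the same number in both groups shared deviations from the group mean (r = 0.262, 0.214 and 0.290 across genes), and other pairs did not (-0.34 to -0.0508). Deviations within a group cancel out, so the negative values are partly forced. The numbers of the labels were taken to pair the samples in the replicate block, whereas the main test did not use the pairing. Shares, sums and ratios of TPM were compared by exact permutation tests that did not use it either.

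The genes and lists were chosen with earlier results of these data known. Named genes were the 7 genes, called genes of 4 lists, 11 preset genes of them and, for *Des*, *Vim* and *Lmna*, the 3 genes most alike over the libraries. Markers of 9 cell types were summed.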

Additional observations from a re-analysis of the deposited data

How the results depend on the processing

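Of the 6 tested genes, 2 were called lower in 14 of 15 alternatives and 0 without dCas9-KRAB replicate 1. Leaving out each library gave 0 to 2 lower and 0 to 0 higher. Of the 4 lists, 7 to 14 genes were lower and 0 to 7 higher without 1 library. The 14 and the 7 came without dCas9-KRAB-En5 replicate 3, against 14.0% lower and 11.7% higher among all genes tested in that fit. Where every library had to hold at least 10 counts, 7 genes of the lists were called lower and 0 higher. Of these, 2 were other filament genes and 4 were linkers or desmin partners, and the share over all genes was not computed. Genes of the lists called higher numbered 5 with DESeq2, against 5.88% of the genes it tested. They also numbered 5 with no filter on low counts and 5 at an adjusted p of at most 0.05, where the share over all genes was not computed. The log2 fold change of *Lmnb2* turned to 0.055 and 0.064 by limma with pseudocounts of 1 and 0.1, to 0.14 without dCas9-KRAB replicate 2 and to 0.10 without dCas9-KRAB-En5 replicate 1, and the cause was not tested. Its fits without 1 library ran from -0.52 to 0.14. The difference in the *Vim* share was 74.6 to 79.7 percentage points and that in the *Lmna* share -20.7 to -8.85 without 1 library.

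With the replicate number as a block, edgeR gave log2 fold changes of -6.77 for *Des* (adjusted p = 9.82e-06), -4.92 for *Nes* (adjusted p = 6.67e-05) and 1.17 for *Vim* (adjusted p = 0.0657). That fit called 2 genes of the lists higher, against 3.94% of all genes tested. The block changed no call among the 6 genes. It called 1543 genes of all genes tested, DESeq2 2390 and edgeR without dCas9-KRAB-En5 replicate 3 3921, against 890.

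With 3 libraries a group, no exact permutation test can reach a p below 0.1. The 6 tested genes had at least 73 counts in every library, whereas *Synm* had too few for a test.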

Other observations

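The genes most alike to *Des* over the 6 libraries, by Pearson correlation of log2 CPM among 7547 genes whose mean was 10 CPM or more, were *Cdc42ep2*, *Slc4a3* and *Fzd2*, with r = 0.999 each. For *Fzd2*, a Wnt receptor gene, the TPM was 17.8, 41.3 and 29.9 in the control libraries and 1.52, 1.32 and 2.04 in the En5 libraries. Like *Des*, it was highest in replicate 2 of the former and in replicate 3 of the latter. For *Vim* they were *Smarca4* (r = 0.998), *Abl1* and *Rrp1b* (r = 0.997 each). *Smarca4*, an ATPase gene of chromatin remodelling, was at 5.43, 20.9 and 10.6 TPM in the control libraries and at 42.2, 89.0 and 12.7 TPM in the En5 libraries. For *Lmna* they were *Akt2* (r = 0.998), *Fbxw5* and *Tysnd1* (r = 0.997 each), and *Akt2*, a kinase gene of insulin signalling, was at 43.3 to 109.8 TPM in control libraries and 40.6 to 54.6 TPM in En5 libraries. These correlations describe 6 libraries that share the difference between groups and the differences in depth and composition between replicates.

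A list of 5 smooth muscle markers summed to 167 to 361 TPM in control libraries and to 4.75 to 10.8 TPM in En5 libraries. Most of the control sums was *Acta2*, at 160 to 339 TPM, while *Myh11*, *Cnn1* and *Lmod1* were at most 0.155 TPM in any library. The 6 neural markers, of a tissue known for *Nes*, summed to 3.61 to 7.02 TPM and to 1.63 to 3.93 TPM. Among them, *Tubb3* was at 2.43 to 6.38 against 0.600 to 1.36 TPM and *Stmn2* at 0.453 to 0.901 against 1.02 to 2.57 TPM, and neither was called. The 5 endothelial markers summed to at most 0.178 and 0.576 TPM, and the 5 epithelial markers to at most 0.0513 TPM in control libraries and to 0 in En5 libraries. Of the 13 macrophage markers tested, 0 were called lower and 1, *Adgre1*, was called higher by edgeR, at 7.62 to 17.7 against 29.6 to 135 TPM.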
